A study of Homo sapiens with 14 samples.

Results

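The region described here is 850 kb of chromosome 16 (hg38, chr16:86400000-87250000) that holds the forkhead genes FOXF1, FOXC2 and FOXL1 and most of C16orf95. It was selected on the measured values themselves, because nearly all of its accessible regions were in the list of one of 2 multiple myeloma (MM) cell lines, so the counts by line below describe that choice and carry no test. Its members were all reference peaks that overlap these coordinates, 37 of 79969 in RPMI8226 and 7 of 72802 in MM.1S, or 44 of 152771 in both lists. Of the 37 RPMI8226 peaks, 33 overlapped no MM.1S peak (89.2%, 95% Wilson interval 75.3 to 95.7), where 38.0% of all RPMI8226 peaks overlapped none. Of the 7 MM.1S peaks, 3 overlapped no RPMI8226 peak (42.9%, 15.8 to 75.0), where the share over the MM.1S list was 35.4%.

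The study profiled accessible chromatin by Omni-ATAC, in which a transposase cuts and tags open DNA, to ask how bone marrow stroma alters MM cells. MM.1S and RPMI8226 are established human MM cell lines. Each was grown alone (MONO), in the upper transwell above the human stromal line HS5, where soluble factors pass but cells do not touch (TSW), or in the lower chamber in contact with HS5 cells (CO), and the cells used were sorted as CD90-CD38+. MM.1S had 3 MONO, 3 TSW and 3 CO libraries, and RPMI8226 had 1 MONO, 2 TSW and 2 CO libraries, 14 in all. Sorting left a small remainder of HS5 in the cells from the lower chamber, according to the study's methods. Peaks in at least 3 libraries of a line entered its list, whatever the culture condition. The only value given for a peak is a whole number, from 3 to 5 in RPMI8226 and from 3 to 9 in MM.1S, which was read as the number of libraries with the peak and is called support here. The lists hold no value of a single library and no read counts, so the culture conditions were not compared and each line is 1 list with no replicate. The read totals that the study lists for each library were not used here. A peak missing from the MM.1S list was called in fewer than 3 of 9 libraries, which is not the same as closed chromatin.

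Forkhead proteins are transcription factors with a winged-helix DNA-binding domain. FOXF1 and FOXL1 act in the mesenchyme around endoderm, where they respond to hedgehog signals, and FOXC2 acts in mesoderm and in lymphatic vessels. FOXF1 is needed for the vessels of the lung, and its neighbour FENDRR, a long noncoding RNA read in the opposite direction, is needed in lateral mesoderm. Enhancers of such developmental factors often lie far from them in stretches with few genes.

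Although the region holds the forkhead genes, its RPMI8226-only peaks did not lie at their starts. FOXF1 (ENSG00000103241.7, chr16:86510527-86515422, plus strand), FOXC2 (ENSG00000176692.8, chr16:86566829-86569728, plus strand) and FOXL1 (ENSG00000176678.6, chr16:86576368-86583478, plus strand) had no RPMI8226 peak within 2500 bp of an annotated start. A run of 31 consecutive RPMI8226-only peaks began 35.0 kb past the start of FOXL1 and 101 kb past that of FOXF1, and ended inside C16orf95 (ENSG00000260456.7, chr16:87083562-87317420, minus strand). The run spanned 551.401 kb (chr16:86611134-87162534) and met 1 protein-coding gene, C16orf95. By number of peaks, it was the longest run of RPMI8226-only peaks on chromosomes 1 to 22. Some runs with fewer peaks spanned more bases, among them chr4:27000945-27595185 with 21 peaks. The chromosome 16 run held 1 MM.1S peak, which stood between its RPMI8226 peaks and overlapped none of them.

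**Figure D1:**
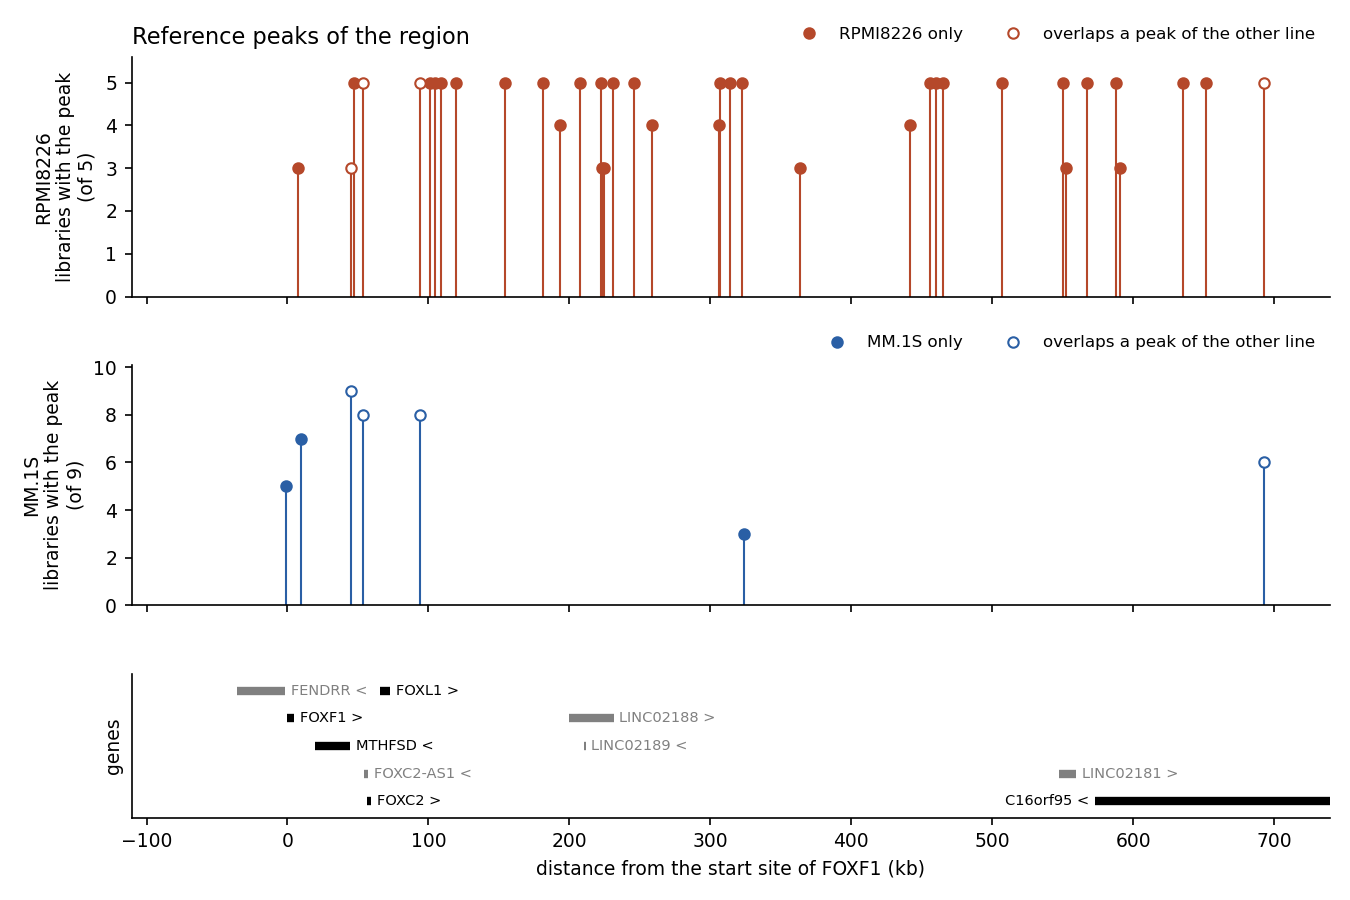
Reference peaks of the region by distance from the start of FOXF1 (kb), with the number of libraries that had each peak on the vertical axis, RPMI8226 above and MM.1S in the middle, and protein-coding genes (black) and long noncoding RNAs (grey) below, with > for the plus and < for the minus strand. Filled points overlap no peak of the other line. Between 101 kb and 652 kb all 31 RPMI8226 peaks are filled and MM.1S has 1 peak, with support 3, and C16orf95 runs on past the right edge.

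The sequences of 5 peaks are shown on the plus strand of hg38, in lower case with motif matches in capitals. The RPMI8226-only peaks shown first were 2 of those in the region with an AP-1 match in the central 200 bp and support 5, since AP-1 factors were among those the study considered. AP-1 factors such as JUNB bind TGACTCA, or TGAGTCA on the other strand, and these letters are in capitals.
Peak 28, chr16:86975523-86975822: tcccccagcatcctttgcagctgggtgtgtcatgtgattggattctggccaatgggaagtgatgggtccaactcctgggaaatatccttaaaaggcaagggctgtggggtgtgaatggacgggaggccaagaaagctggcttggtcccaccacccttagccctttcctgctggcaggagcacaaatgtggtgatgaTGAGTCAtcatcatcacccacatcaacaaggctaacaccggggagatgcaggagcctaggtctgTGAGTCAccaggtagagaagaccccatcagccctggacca
Peak 35, chr16:87145415-87145714: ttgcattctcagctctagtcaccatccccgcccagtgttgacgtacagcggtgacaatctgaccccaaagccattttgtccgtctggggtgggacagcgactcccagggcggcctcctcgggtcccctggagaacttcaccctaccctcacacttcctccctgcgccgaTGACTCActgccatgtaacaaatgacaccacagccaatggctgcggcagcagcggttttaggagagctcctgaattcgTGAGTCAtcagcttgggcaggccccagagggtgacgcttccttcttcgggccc
Peaks 28 and 35 each held 2 matches in these 300 bases. The widest RPMI8226 peak follows, its central 300 bases shown with an AP-1 match outside the central 200 bp, an ETS match (AGGAAG) and an E-box (CAGGTG) in capitals. It and the FOXC2-side peak were added after their values were seen.
Peak 22, chr16:86824350-86824649: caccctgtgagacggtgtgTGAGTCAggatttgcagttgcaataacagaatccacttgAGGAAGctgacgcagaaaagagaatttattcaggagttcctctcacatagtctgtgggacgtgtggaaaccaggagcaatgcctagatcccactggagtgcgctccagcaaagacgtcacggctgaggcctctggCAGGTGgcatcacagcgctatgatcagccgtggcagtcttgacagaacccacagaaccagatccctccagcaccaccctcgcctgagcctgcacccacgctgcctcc
The peak before FOXC2 is shown over the 253 bases of its MM.1S form because it was open in both lines and is the nearest peak to FOXC2. Its capitals mark a MAF match (TGCTGAC, here on the other strand), 2 overlapping ISRE matches (GAAANNGAA, also on the other strand, a motif of interferon regulatory factors) and an E-box.
Shared peak before FOXC2, chr16:86563877-86564129: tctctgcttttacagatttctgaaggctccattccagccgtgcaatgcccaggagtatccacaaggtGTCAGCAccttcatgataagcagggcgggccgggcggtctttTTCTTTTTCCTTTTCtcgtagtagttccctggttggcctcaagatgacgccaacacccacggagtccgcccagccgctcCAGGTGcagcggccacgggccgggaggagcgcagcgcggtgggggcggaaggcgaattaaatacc
The MM.1S-only peak before FOXF1 is shown because it is the single peak of either line at the start of a forkhead gene here, and its capitals mark an ISRE match.
MM.1S peak before FOXF1, chr16:86509481-86509780: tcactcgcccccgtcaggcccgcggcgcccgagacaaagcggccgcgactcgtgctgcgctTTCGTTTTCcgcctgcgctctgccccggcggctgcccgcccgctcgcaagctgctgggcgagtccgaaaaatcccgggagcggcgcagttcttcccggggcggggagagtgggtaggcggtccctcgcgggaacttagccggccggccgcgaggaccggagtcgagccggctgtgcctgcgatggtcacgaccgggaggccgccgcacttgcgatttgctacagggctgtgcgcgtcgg
These matches are letters in a window and do not show that a factor was bound.

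The 5 peaks of each line before the run lay around the forkhead genes, over 211 kb. Each line had 2 line-only peaks there and 3 that overlapped. At FOXF1, the MM.1S list had a peak 0.897 kb before the start (chr16:86509462-86509799, 338 bp, support 5), which also lay 0.531 kb from the start of FENDRR. The RPMI8226 list had none within the same window, and its nearest peak was 7.32 kb past the start (chr16:86517657-86518046, 390 bp, support 3). MM.1S had a second peak 9.57 kb past the start of FOXF1 (chr16:86519858-86520329, 472 bp, support 7), 1.81 kb from the RPMI8226 peak and overlapping none. FOXF1 was thus flanked by peaks of both lines at different positions, and the 2 MM.1S peaks had GC contents of 73.1% and 63.3% against 59.2% for the RPMI8226 peak.

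FOXC2 had no peak of either line within 2500 bp of its start. Its nearest peak was shared, 2.99 kb before the start in RPMI8226 (chr16:86563541-86564147, 607 bp, support 5) and 2.83 kb before it in MM.1S (chr16:86563877-86564129, 253 bp, support 8), and the MM.1S peak lay wholly within the RPMI8226 peak. Over the whole lists the median width was 536 bp in MM.1S and 362 bp in RPMI8226, the opposite order to this peak. FOXC2-AS1, a noncoding RNA across the start of FOXC2, had no promoter peak in either line. FOXL1 also had none, and its nearest peak was the same shared one, 12.5 kb away in RPMI8226 and 12.4 kb in MM.1S. On the other side of FOXL1, a peak shared by both lines stood 28.2 kb past its start in RPMI8226 (chr16:86604305-86604860, 556 bp, support 5) and 28.4 kb past it in MM.1S (chr16:86604335-86605218, 884 bp, support 8).

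Between FOXF1 and FOXC2 lies MTHFSD, named for its domain like a folate enzyme, whose start was open in both lines. MM.1S had 1 promoter peak there with support 9 (chr16:86555012-86555549, 538 bp), the only MM.1S peak of the region called in all 9 libraries. RPMI8226 had a narrower overlapping peak with support 3 (chr16:86555160-86555372, 213 bp) and a line-only peak with support 5 within the 2500 bp window (chr16:86557632-86558011, 380 bp). The start of FLJ30679, an uncertain gene model beside it, had the same peaks, and the pseudogene RPL7AP63 between FOXF1 and MTHFSD had no promoter peak in either line. The peak at the start of MTHFSD itself was thus called in every MM.1S library and in 3 of 5 RPMI8226 libraries.

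C16orf95, a protein-coding gene of little known function, is read towards the forkhead genes and starts beyond the region's edge. Its start carried a peak in both lines, with support 5 in RPMI8226 (chr16:87316902-87317711, 810 bp) and support 9 in MM.1S (chr16:87316892-87317930). Inside the part of the gene that the region holds, RPMI8226 had 5 peaks and MM.1S had 1. By coordinate, the first 4 of the RPMI8226 peaks were line-only, with supports of 5, 3, 5 and 5, and closed the run. The last overlapped the MM.1S peak (chr16:87203220-87203515, support 5, and chr16:87203155-87203471, support 6) and lay in an intron. So the promoter was open in both lines, and 4 of the 5 RPMI8226 peaks in the part within the region were line-only. In the rest of the gene, beyond the region's edge, MM.1S had a line-only peak with support 4 (chr16:87278751-87279047). RPMI8226 had no peak from that edge to its promoter peak.

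The run itself had no MM.1S peak in reach for most of its length. Distances from the 33 RPMI8226-only peaks of the region to the nearest MM.1S peak ran from 1.10 to 183 kb with a median of 86.5 kb. More than 10 kb separated 27 of them from any MM.1S peak, more than 50 kb separated 21, and more than 100 kb separated 13. The one MM.1S peak in the run (chr16:86834557-86834874, 318 bp) had support 3, the lowest a listed peak can have, and was 1.10 kb from RPMI8226 peak 23. The groups of neighbouring peaks named next were picked after their positions were seen. Counting from the lower coordinate, peaks 6 to 9 opened the run within 19.2 kb, all 4 with support 5. Their distances past the start of FOXL1 were 35.0, 38.5, 42.9 and 53.6 kb.

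More widely spaced single peaks followed, and then 5 peaks within 24.0 kb in LINC02188, a long noncoding RNA of unknown role. Their supports were 5, 5, 3, 3 and 5 in order of position, and 3 of them lay within 2500 bp of an annotated LINC02188 start. MM.1S had no peak at LINC02188, and its nearest was 105 kb from the gene's start. LINC02189, which is read in the opposite direction from within LINC02188, had no promoter peak in either line. The longest gap between neighbouring RPMI8226 peaks, 77.5 kb, came after peak 24, a 150 bp peak with support 3 that was the narrowest of the region. Beyond it, peaks 26 to 28 stood within 9.95 kb, all 3 with support 5, and 2 peaks with supports of 5 and 3 lay in LINC02181, a further noncoding RNA, whose nearest MM.1S peak was 146 kb from its start. The median gap between neighbouring peaks of the region was 12.9 kb and the smallest was 0.493 kb.

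Of the 31 peaks of the run, 17 were between genes, 9 in introns and 5 in exons of noncoding RNAs. By nearest protein-coding start, 20 of the 37 RPMI8226 peaks were assigned to FOXL1, 13 to C16orf95, 2 to MTHFSD and 1 each to FOXC2 and FOXF1. Nearness to FOXL1 follows from the lack of protein-coding genes in between and shows no regulation of it. The 5 widest RPMI8226 peaks were all RPMI8226-only and all had support 5. Peak 22 (chr16:86823842-86825158) was 1317 bp wide and lay between genes, 248 kb past the start of FOXL1. Peak 10 (chr16:86664500-86665511) was 1012 bp wide and lay in an intron of an unnamed noncoding RNA. Peak 8 (chr16:86618834-86619759) was 926 bp wide and peak 17 (chr16:86740976-86741890), in an exon of LINC02188, was 915 bp. Peak 30 (chr16:87060011-87060797), in an exon of LINC02181, was 787 bp.

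Around the region, both lines had peaks at like densities. RPMI8226 had 43.5 peaks per Mb in the region, 48.0 in the 2 Mb of both flanks together and 25.9 over the genome. MM.1S had 8.24, 39.0 and 23.6. RPMI8226 was therefore near its own flanks in number of peaks, and MM.1S was below its flanks. RPMI8226 peaks covered 2.09% of the region and 2.15% of the flanks, and MM.1S peaks covered 0.367% and 2.50%. In the flanks 39 of 96 RPMI8226 peaks were line-only (40.6%, 31.3 to 50.6), near the 38.0% of the list, as were 23 of 78 MM.1S peaks (29.5%, 20.5 to 40.4).

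**Figure D2:**
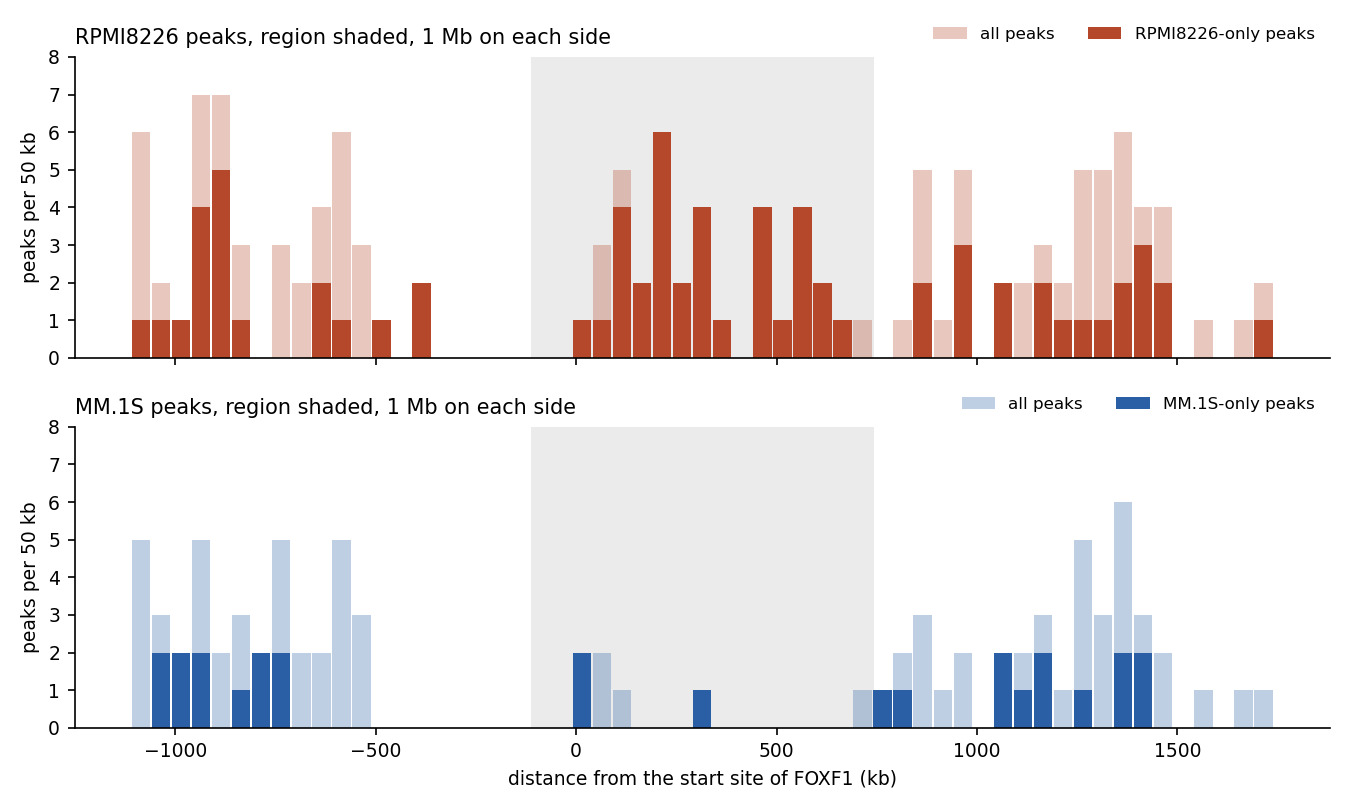
Peaks per 50 kb by distance from the start of FOXF1 (kb) in RPMI8226 (top) and MM.1S (bottom), with all peaks pale, line-only peaks dark and the region shaded. Within the region nearly all RPMI8226 bars are dark and MM.1S bars are few, whereas on both sides each line has shared and line-only peaks. Neither line has a peak in the 7 bins before the one that holds the start of FOXF1.

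The edges of the region fell in stretches without peaks. The last RPMI8226 peak before it was 274 kb outside (chr16:86125620-86126021, line-only, support 4), and the last MM.1S peak was 400 kb outside (chr16:85999253-85999644, shared, support 5). The first RPMI8226 peak after it was the shared C16orf95 promoter peak, 66.9 kb outside, and the first MM.1S peak was line-only with support 4, 28.8 kb outside (chr16:87278751-87279047). The first and last RPMI8226 peaks inside had supports of 3 (line-only) and 5 (shared), and those of MM.1S had 5 (line-only) and 6 (shared).

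Most genes in the flanks had open starts in both lines. All 6 protein-coding genes of the flank before FOXF1 had a promoter peak in both lines, among them IRF8, a factor of B cells and myeloid cells, with 3 peaks in each line and highest supports of 5 and 9. In the flank after C16orf95, 7 of 8 did in RPMI8226 and 6 of 8 in MM.1S, including FBXO31, part of a ubiquitin ligase, and MAP1LC3B, a core autophagy protein. The exceptions were JPH3, with none in either line, and CA5A, with one in RPMI8226 alone, at support 3. Of the 5 protein-coding genes that overlap the region, 2 had one in RPMI8226 (MTHFSD and C16orf95) and 3 in MM.1S (those and FOXF1). The start of C16orf95 and its promoter peak lie outside the region. Of the genes that start inside it, only MTHFSD had a promoter peak in RPMI8226, and MTHFSD and FOXF1 had one in MM.1S. The background, taken over every protein-coding gene, was 71.9% in RPMI8226 and 76.8% in MM.1S.

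The number of libraries with each peak was next set beside the flanks and the list. Of the 37 peaks, 7 had support 3, 4 had support 4 and 26 had support 5 (70.3%, 54.2 to 82.5), against 66.7% (56.8 to 75.3) of the 96 flank peaks and 64.1% of all RPMI8226 peaks, a share inside both intervals. Among the 33 line-only peaks, 23 had support 5 (69.7%, 52.7 to 82.6), compared with 43.6% (43.1 to 44.2) of RPMI8226-only peaks elsewhere and 76.7% (76.4 to 77.1) of shared peaks elsewhere. The interval of the region lay above the share of line-only peaks elsewhere and held that of shared peaks. Among distal peaks, those more than 2500 bp from any start, 23 of the region's 30 had support 5 (76.7%, 59.1 to 88.2). The share over all distal RPMI8226 peaks was 58.5%, below that interval. It was 70.6% in the flanks, 43.3% in line-only distal peaks elsewhere and 71.5% in shared ones elsewhere. These intervals cover counting error only, and neighbouring peaks are not independent of each other. By its choice, nearly all of the region's RPMI8226 peaks were line-only, 33 of 37. The contrast with line-only peaks elsewhere is therefore not independent of that choice. In the run, 22 of 31 peaks had support 5, 4 had support 4 and 5 had support 3.

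A peak with support 5 was called in every RPMI8226 library and so in the MONO library too, to which no HS5 cells were added. This holds for 26 of the 37 peaks and for 22 of the 31 in the run. For the 11 peaks with support 3 or 4 the list does not say which libraries had them. In MM.1S, supports of 7 or more, which need at least 1 library of every condition, were seen at 4 of 7 peaks (57.1%), beside 72.3% of all MM.1S peaks.

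Width gave the same order and is not independent of the region's choice either. The 33 RPMI8226-only peaks of the region had a median width of 395 bp (quartiles 297 and 596), against 291 bp (212 and 408) for RPMI8226-only peaks elsewhere, 421 bp (296 and 628) for shared peaks elsewhere and 383.5 bp (287.5 and 540) in the flanks. Promoter peaks are often wide, and the region had few of them, 7 of 37 (18.9%, 9.48 to 34.2) against 46.9% in the flanks and 36.0% in the list. Among distal peaks alone, that is, those more than 2500 bp from any start, the medians were 467 bp in the region, 289 bp for line-only peaks elsewhere, 361 bp for shared peaks elsewhere and 373 bp in the flanks. Widths in the region spread from 150 to 1317 bp, and the quartile ranges of these sets overlapped.

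**Figure D3:**
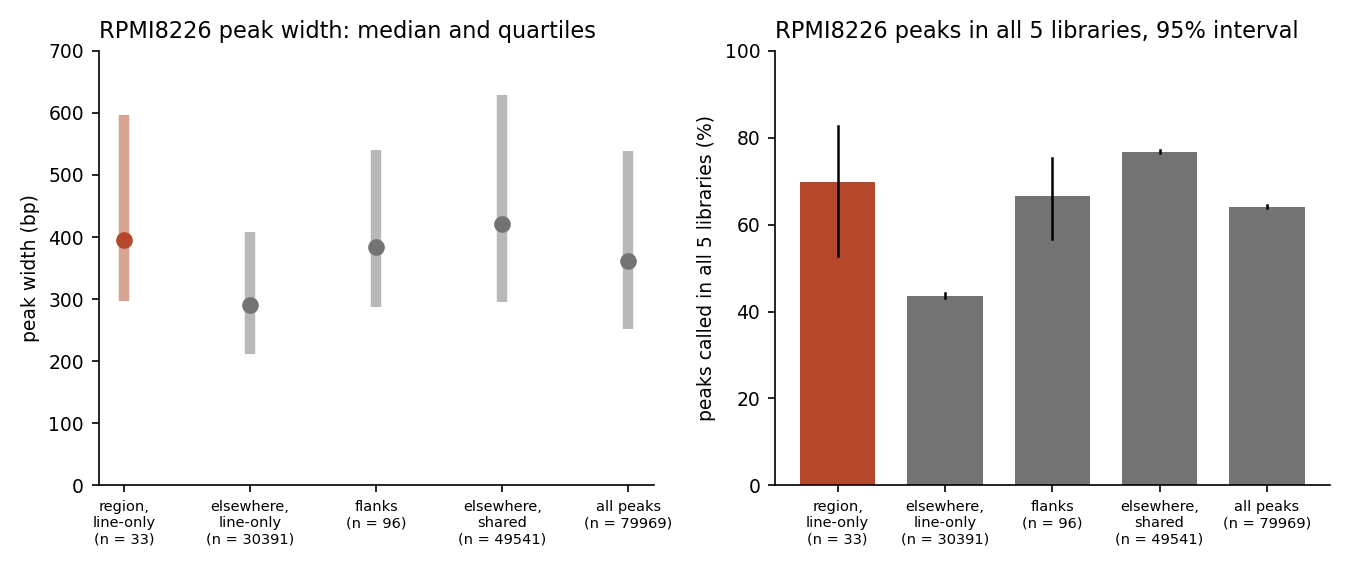
Left, width of RPMI8226 peaks (bp), with points for medians and bars for quartiles. Right, share of RPMI8226 peaks called in all 5 libraries (%), with 95% Wilson intervals. The line-only peaks of the region (red, n = 33) have a median of 395 bp and a share of 69.7%, above line-only peaks elsewhere (291 bp and 43.6%) and near the flanks (383.5 bp and 66.7%).

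In base composition the region's RPMI8226 peaks had a median GC content of 52.5% (quartiles 50.3 and 55.4), between the 57.4% of the flanks and the 47.5% of RPMI8226-only peaks elsewhere, and close to the 52.6% of shared peaks elsewhere. The ratio of observed to expected CpG had a median of 0.280, against 0.349 in the flanks, 0.174 in line-only peaks elsewhere and 0.262 in shared peaks elsewhere. Most of the region's peaks were therefore far from the composition of CpG islands. The narrow peak at MTHFSD had the highest values of both among the 37, a GC content of 70.9% and a CpG ratio of 0.935. Promoter peaks made up 44.5% of shared peaks elsewhere and 18.9% of the region's peaks. Among distal peaks alone, the median GC content was 52.8% in the region and 57.5% in the flanks. It was 48.5% in shared and 47.0% in line-only distal peaks elsewhere, so the closeness to shared peaks did not hold there. The quartile ranges of GC content overlapped. The CpG medians kept their order among distal peaks.

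For motifs, 12 fixed letter strings were sought on both strands in the central 200 bp of distal RPMI8226 peaks. AP-1 was found in 4 of 30 distal peaks of the region (13.3%, 5.31 to 29.7), against 17.0% of all distal RPMI8226 peaks, 21.8% of line-only distal peaks elsewhere, 12.9% of shared ones elsewhere and 9.80% (5 of 51) in the flanks. The interval of the region held all of these shares. Over the whole peak, AP-1 was in 8 of 30 (26.7%, 14.2 to 44.4), against 23.5% of all distal RPMI8226 peaks, so its order to the list changed with the window. Whole-peak shares also depend on width, and the distal medians were 467 bp in the region and 327 bp over the list. Of the 4 distal peaks with a central AP-1 match, 3 had support 5, among them peaks 28 and 35 printed above, and peak 25 had support 4. All 4 lay in the part of the run nearer to C16orf95, a position that held only for distal peaks with a central match. Over the whole peak, distal peaks 10, 17 and 22 on the FOXL1 side had AP-1 too. In the central 200 bp, peak 16 on that side, a promoter peak in LINC02188, also had it. The forkhead motif (TGTTTAC) was in 1 of 30 (3.33%, 0.591 to 16.7), against 4.69% of all distal RPMI8226 peaks.

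The E-box CAGGTG, to which basic helix-loop-helix and zinc finger factors bind, was the motif found in most peaks, 14 of 30 (46.7%, 30.2 to 63.9). Its share was 28.1% over all distal RPMI8226 peaks, 26.3% in line-only peaks elsewhere and 47.1% (24 of 51) in the flanks, so the region was near its flanks. Over the whole peak, the E-box was in 16 of 30 (53.3%, 36.1 to 69.8). The whole-peak share of all distal RPMI8226 peaks, 41.3%, lay inside that interval. In the central 200 bp, ETS (AGGAAG), the motif of the ETS family, was in 9 of 30 (30.0%), against 31.7% of all distal RPMI8226 peaks. MAF (TGCTGAC), RUNX (TGTGGTT), ISRE (GAAANNGAA), EICE (GGAANNGAA) and ATF::CEBP (TGATGNAA) were in 2 of 30 each (6.67%, 1.85 to 21.3). Over all distal RPMI8226 peaks MAF was in 5.90%, RUNX in 10.7%, ISRE in 11.7%, EICE in 8.48% and ATF::CEBP in 4.02%, all inside that interval. ISRE and EICE can overlap each other, and EICE can overlap ETS. CTCF (CCACNAGNG), STAT3 (TTCCNGGAA) and NF-kB (GGGANTTTC) were in none of the 30, which allows a share of up to 11.4% (upper Wilson limit). Over all distal RPMI8226 peaks they were in 5.16%, 0.645% and 1.56%, below that limit.

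**Figure D4:**
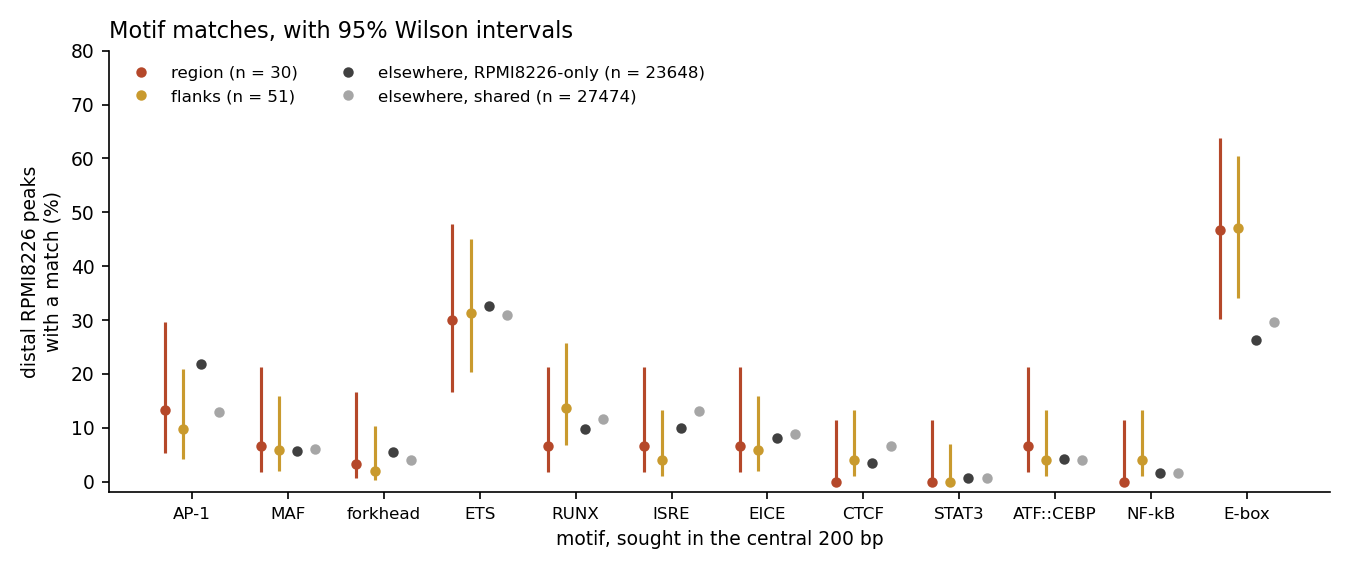
Share of distal RPMI8226 peaks (%) with a match to each of 12 motifs in their central 200 bp, with 95% Wilson intervals, in the region (red), the flanks (yellow), and line-only (dark) and shared (grey) peaks elsewhere. The intervals of the region (n = 30) are wide, and the E-box is at 46.7% in the region and 47.1% in the flanks, above both sets elsewhere.

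Many other forkhead genes had open starts. In a list of 44 forkhead genes, 27 had a promoter peak in RPMI8226 (61.4%, 46.6 to 74.3) and 31 in MM.1S (70.5%, 55.8 to 81.8), against 71.9% and 76.8% of protein-coding genes. Both lines had one at 25, among them FOXO1, FOXO3, FOXP1 and FOXM1, factors of growth control and B cells. RPMI8226 alone had one at FOXC1 and FOXR1, MM.1S alone at FOXF1, FOXA2, FOXI2, FOXI3, FOXN1 and FOXQ1, and neither line at 11, including FOXC2, FOXL1 and FOXF2. FOXF1 had support 5 of 9 in MM.1S, below the 9 of FOXQ1 and above the 3 of FOXN1.

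Of 20 hedgehog pathway genes, 11 had a promoter peak in RPMI8226 (55.0%, 34.2 to 74.2) and 17 in MM.1S (85.0%, 64.0 to 94.8). The shares over protein-coding genes, 71.9% and 76.8%, lay inside these intervals. The receptor gene PTCH1, the factors GLI1 and GLI3 and the inhibitor SUFU had one in both lines. The ligand genes SHH and IHH, the transducer SMO and the inhibitor HHIP had one in MM.1S alone, as did FOXF1, and GLI2 and FOXL1 had none in either. DHH, the other ligand gene, had one in both.

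Promoter peaks were also counted at 19 plasma cell genes, among them SDC1, IRF4, PRDM1 and XBP1, and all 19 had one in both lists. Both are MM lines, so a promoter peak at these genes does not separate them. Of 24 stromal genes, 12 had one in RPMI8226 (50.0%, 31.4 to 68.6) and 15 in MM.1S (62.5%, 42.7 to 78.8), beside 71.9% and 76.8% of protein-coding genes. Both lines had one at 11, among them COL1A1, COL1A2, FN1, PDGFRA, PDGFRB, DCN and VIM. MM.1S alone had one at 4 (SPARC, LOX, TWIST1 and PRRX1) and RPMI8226 alone at COL5A1. Neither line had one at 8, among them THY1, which encodes the CD90 used for sorting, COL3A1, LUM, POSTN and FAP. Promoter peaks can also mark genes that are not expressed, and the part of HS5 cells in the region's peaks was not tested.

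Other regions of the same kind were set beside the run. The MM.1S-only run with the most peaks, on chromosomes 1 to 22 and without immunoglobulin genes, was chr20:22752192-23136138, with CD93, SSTR4 and THBD. It held 21 MM.1S peaks and no RPMI8226 peak. Its density was 54.7 peaks per Mb, against 56.2 RPMI8226 peaks per Mb in the chromosome 16 run. Of its peaks 5 of 21 (23.8%, 10.6 to 45.1) were called in all 9 libraries, a stricter count than all 5. The next RPMI8226-only run by number of peaks that spans no centromere was chr4:27000945-27595185, with STIM2. It held 21 RPMI8226 peaks at 35.3 per Mb and 3 MM.1S peaks, all line-only. Its peaks had support 5 in 13 of 21 (61.9%, 40.9 to 79.2), a median width of 288 bp and a median GC content of 44.5%, against 22 of 31 (71.0%, 53.4 to 83.9), 417 bp and 51.9% in the chromosome 16 run. The FOXQ1, FOXF2 and FOXC1 cluster on chromosome 6, the forkhead cluster most like this one in its genes, had similar numbers of peaks in both lines. It had 34 RPMI8226 peaks, 15 of them line-only (44.1%, 28.9 to 60.5), and 33 MM.1S peaks, 14 of them line-only (42.4%, 27.2 to 59.2). Its line-only share in RPMI8226 was near the 38.0% of the list, unlike the 89.2% by which the chromosome 16 region was chosen. The share over the MM.1S list, 35.4%, lay inside the cluster's MM.1S interval. At promoters the lines differed there. FOXC1 had a promoter peak in RPMI8226 alone (support 5), FOXQ1 in MM.1S alone (support 9) and FOXF2 in neither.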

How the data were processed

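Omni-ATAC reads were aligned by the authors to hg38 with Bowtie2, reads at several positions or duplicated were removed, and peaks were called with MACS3, in versions not given in the sources used here. The deposited lists give, for each line, the peaks found in at least 3 libraries, with culture conditions pooled. The last column, the only measured value, is in a unit other than reads, has no header and was not normalised by the authors. It was read from its range as a count of libraries. These lists hold no depth per sample, and the read totals in the study's supplement were not used. Positions were read as BED and are printed 1-based. Genes came from GENCODE 44, whereas the study used RefSeq.

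Peaks that overlapped by at least 1 bp were shared. Promoter peaks overlapped 2500 bp on either side of any annotated start. Shares have 95% Wilson intervals (scipy 1.17.1, numpy 2.4.6), which cover counting error only. No test was run, since the region was selected on these values, and the scripts were tested on simulated data. The members and gene lists were chosen with earlier results of these data known. Peaks named by rule were those at member starts, all MM.1S peaks, the 5 widest RPMI8226 peaks and AP-1 peaks with support 5. Other RPMI8226 peaks were named for their position or support after their values were seen. Genes named were the members, those with a symbol in the region, the nearest coding genes and IRF8 in the flanks, and the lists, with JPH3 and CA5A added as exceptions to a count. The share of repeats could not be computed, because the genome sequence used is not soft-masked. Promoter sequences of RefSeq were not used. A peak sequence and a gene of the lists are not reported here by name.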

Additional observations from a re-analysis of the deposited data

How the results depend on the processing

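Of 78 alternative values over 12 settings, 69 moved by less than the counting interval or 1.5 times. With only the peaks that every library of a line had, the RPMI8226-only share was 100% and MM.1S had 1 peak in the region. The share over the whole list at this setting was not computed, and that of the full list is not a like background. The same values, 100% and 1 peak, held from the first to the last peak of the run, by its construction. With flanks of 2 Mb, the flanks held 210 RPMI8226 and 194 MM.1S peaks, and 30.0% of those of RPMI8226 were line-only. With a promoter window of 5000 bp, 2 of the 4 genes FOXF1, FOXC2, FOXL1 and C16orf95 had an RPMI8226 promoter peak in place of 1. Over the whole peak, a longer stretch than the central 200 bp, the shares of the region's distal RPMI8226 peaks were 50.0% for ETS, 26.7% for AP-1, 20.0% for ISRE, 16.7% for ATF::CEBP and 6.67% for the forkhead motif and NF-kB, and 1 peak (3.33%) held CTCF. Over all distal RPMI8226 peaks the whole-peak shares were 46.1%, 23.5%, 18.7%, 6.64%, 7.91% and 2.49% in the same order, and 7.85% for CTCF. The interval of ATF::CEBP in the region, 7.34 to 33.6, lay above its list share, and those of the other motifs named held theirs. Wider peaks hold more letters, and the distal medians were 467 bp in the region and 327 bp over the list. The list is thus not a like background for whole-peak shares. When an overlap of at least 50% of both peaks was required, 94.6% of the RPMI8226 and 71.4% of the MM.1S peaks of the region were line-only. The shares over the whole lists at this rule were not computed. A stricter rule cannot lower a line-only share, so the list shares given for a 1 bp overlap are not a like background.

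No paired analysis was possible because the lists hold no value for a single library and no library was left out for the same reason. Read depth was not taken into account in any statement on a peak that one list lacks, and the MM.1S list asked for 3 of 9 libraries while the RPMI8226 list asked for 3 of 5.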
